A study of Mus musculus with 17 samples.

Results

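CD8 T cells from the core of lung tumours were compared between mice lacking PD-L1 in the endothelium, labelled KO, and WT mice. The comparison took every library titled as core-enriched, which gave 6 KO and 5 WT libraries out of 17 in the series. The other 6 libraries, 4 KO and 2 WT, came from rim-enriched tissue and entered the same statistical fit. Core-enriched tissue was macroscopic lung nodules and rim-enriched tissue was parenchymal nodules, and CD8 T cells were isolated from both by flow sorting before bulk RNA sequencing. The labels give the genotype as WT or KO, and the series text ties KO to loss of endothelial PD-L1. The sources used here do not give the Cre driver, the strain, the tumour model, the age of the mice or any treatment. The WT libraries are named F164, H719, H873, H876 and pool. The KO libraries are named F219, F318, F319, F322, F86 and O. The makeup of the pool is not given.

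PD-L1, the product of Cd274, binds the receptor PD-1 on T cells and dampens signals from the T cell receptor. Endothelial cells line the vessels through which T cells enter a tumour and can present this ligand to them. CD8 T cells that meet antigen for long periods take on an exhausted state, with PD-1, TIM-3, LAG-3 and the transcription factor TOX high, while a stem-like subset that uses TCF-1, the product of Tcf7, sustains the response.

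The question was how CD8 T cells of the tumour core differ in transcripts when endothelial PD-L1 is missing. Of 20137 genes tested with edgeR, 0 differed at an adjusted p under 0.05, which is 0 percent, and the smallest adjusted p was 0.796, shared by 1157 genes. At an unadjusted p under 0.05, 754 genes (3.74 percent) had a higher level in KO and 490 (2.43 percent) a lower level. A fit of the 11 core libraries alone tested 15416 genes and gave 333 higher and 292 lower at that threshold, with 0 called and a smallest adjusted p of 0.999. In 45 genes (0.223 percent) every KO library lay above every WT library, and in 35 (0.174 percent) every KO library lay below. DESeq2 called 9 genes (0.0447 percent), most of them sparse transcripts described further on.

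The levels of the exhaustion markers overlapped between the genotypes. They are given as CPM, the share of a library's counts on a common scale, after edgeR's TMM scaling. Pdcd1, which encodes PD-1, measured 532, 1337, 1636, 414 and 1114 CPM in WT F164, H719, H873, H876 and pool, in that order. In KO the lowest library held 321 CPM, the median was 1120 and the highest was 1422. The lowest KO library lay below all WT libraries and the other 5 lay within the WT range. The log2 fold change of KO over WT was 0.03 with a standard error (SE) of 0.36 and a 95% interval from -0.73 to 0.79.

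Havcr2, which encodes TIM-3, measured 120, 250, 224, 106 and 138 CPM in the WT libraries in the order above. KO ran from 69.6 to 261 CPM with a median of 178, so the KO range enclosed the WT range. Lag3, an inhibitory receptor for MHC class II, measured 64.4, 187, 133, 54.9 and 137 CPM in WT and between 78.4 and 136 with a median of 105 in KO. All 6 KO libraries lay inside the WT range of Lag3. The log2 fold changes were 0.06 (SE 0.34) for Havcr2 and -0.10 (SE 0.32) for Lag3.

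Tigit, a receptor for the ligand CD155, had a log2 fold change of 0.11 with an interval from -0.52 to 0.74. Ctla4, which competes with CD28 for B7 ligands, had 0.01 with an interval from -0.71 to 0.73. Entpd1, the ectoenzyme CD39, had -0.07 with an interval from -0.60 to 0.45, and Cd38, an NAD-consuming ectoenzyme, -0.14 with an interval from -0.52 to 0.24. Of the 16 inhibitory receptors and exhaustion markers, 6 had a fitted value above 0 and 10 below, with a median of -0.066 on the log2 scale. The median over all genes tested was -0.010, and 48.4 percent of them lay above 0. No member reached an unadjusted p under 0.05, none separated the groups, and the 95% interval lay within 1 log2 unit of 0 for 14 of the 16. The sign of the list's median turned positive in both limma voom settings and without WT H719 or WT H873. Pvrig, a receptor for nectin-2, had the highest value of the list, 0.52 with an interval from -0.03 to 1.06, at 8.03 ± 1.45 CPM in WT (SD, n = 5) and 11.5 ± 3.51 in KO (SD, n = 6). Of its 6 KO libraries, 4 lay above all WT libraries.

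**Figure D1:**
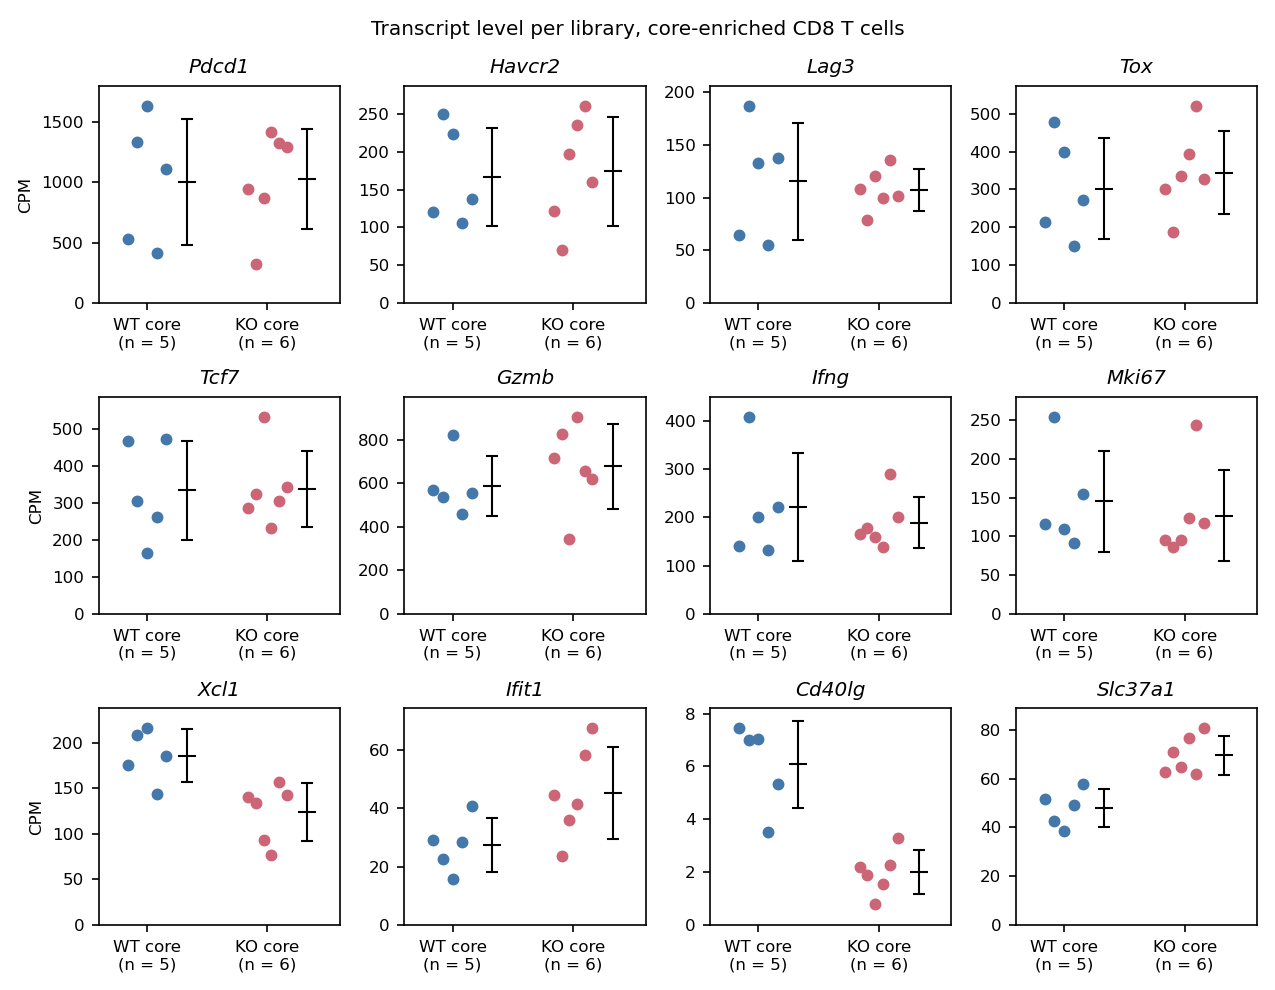
Level of 12 genes in each core library in CPM, with WT in blue (n = 5) and KO in red (n = 6) and the mean with its SD in black. The groups overlap for Pdcd1, Havcr2, Lag3, Tox, Tcf7, Gzmb, Ifng, Mki67, Xcl1 and Ifit1, while Cd40lg is lower and Slc37a1 higher in every KO library.

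The regulators of the exhausted and stem-like states also overlapped between the genotypes. Tox measured 214, 477, 399, 150 and 271 CPM in the WT libraries and between 187 and 521 with a median of 332 in KO. Only 1 KO library lay outside the WT range, above it. Tox had a log2 fold change of 0.19 (SE 0.28). Of 15 exhaustion-associated transcription factors 9 were above 0 and 6 below, with a median of 0.031 that was negative without WT F164. Rbpj, the DNA-binding partner of Notch, stood at -0.25 with an interval from -0.82 to 0.33.

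Tcf7 measured 467, 304, 166, 263 and 472 CPM in WT and between 232 and 533 with a median of 315 in KO, where 1 library exceeded all WT libraries. Its log2 fold change was 0.01 with an interval from -0.69 to 0.72. Slamf6, a surface marker of stem-like cells, measured 124 ± 24.5 CPM in WT and 106 ± 8.55 in KO and had a log2 fold change of -0.23 (SE 0.22). Id3, a repressor of E proteins, stood at 0.31 (SE 0.27). Among 16 stem-like and memory genes 11 were above 0 and 5 below, with a median of 0.10 that changed sign without WT H873 or KO F319. No member of either list reached an unadjusted p under 0.05.

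Among cytotoxic genes, Gzmk and Gzmc had the smallest p in each direction. Gzmk encodes granzyme K and measured 71.5, 87.8, 161, 57.4 and 87.5 CPM in WT. KO ran from 101 to 326 CPM with a median of 127, with 2 libraries above all WT libraries and 4 inside their range. The log2 fold change of Gzmk was 0.79 with an interval from 0.11 to 1.47 and an edgeR adjusted p of 0.796, and it ran from 0.44 to 1.07 when single core libraries were left out. Gzmc, which encodes granzyme C, measured 8.27, 2.71, 3.47, 16.7 and 7.24 CPM in WT and between 0.608 and 4.61 with a median of 1.59 in KO. In 5 of the 6 KO libraries it was below all WT libraries. Gzmc had a log2 fold change of -2.01 (SE 0.75). Granzyme genes are close copies of one another, so reads may have been shared among them.

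Gzmb, the main granzyme of killer cells, measured 588 ± 138 CPM in WT and 678 ± 195 in KO, a log2 fold change of 0.21 (SE 0.29). Prf1, the pore-forming perforin, measured 285 ± 123 and 310 ± 78.7 CPM, a log2 fold change of 0.12 (SE 0.29). All told 11 of 15 cytotoxic granule and death ligand genes lay above 0, with a median of 0.16 that kept its sign in every alternative tried. The mean over the list was 0.047. By library its mean log2 CPM overlapped, at 6.71 ± 0.11 in WT and 6.69 ± 0.13 in KO (SD).

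The effector cytokine genes gave intervals that crossed 0. Ifng measured 141, 409, 201, 132 and 222 CPM in WT and between 139 and 289 with a median of 172 in KO, so all KO libraries lay inside the WT range. Its log2 fold change was -0.23 (SE 0.31). Tnf stood at -0.31 (SE 0.33). Ccl5, a chemokine abundant in CD8 T cells, measured 2506 ± 504 CPM in WT and 3106 ± 764 in KO and stood at 0.31 (SE 0.31).

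Xcl1 encodes a chemokine that attracts cross-presenting dendritic cells through XCR1. It measured 175, 209, 217, 144 and 185 CPM in WT and between 76.9 and 157 with a median of 137 in KO. In 5 of 6 KO libraries it was below all WT libraries. The log2 fold change was -0.58 with an interval from -1.17 to 0.00 and an edgeR adjusted p of 0.804. Ccl1, a ligand of CCR8 that was chosen after its values were seen, measured 39.3, 74.8, 71, 78.3 and 107 CPM in WT and between 27.3 and 70.7 with a median of 39.7 in KO. It had a log2 fold change of -0.83 (SE 0.51). Of 13 effector cytokine and chemokine genes 6 were above 0 and 7 below, with a median of -0.17 that turned positive without WT H719.

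Genes of terminal effector and circulating cells had a median of 0.34, with 12 of 14 members above 0. That median was 0.11 without KO F318, the library with the highest mean level of the list, and was 0.19 without KO F219 and 0.52 without WT H876. S1pr5, a sphingosine-phosphate receptor used for tissue exit, measured 16.9, 10.7, 6.71, 11.9 and 4.99 CPM in WT and between 5.59 and 171 with a median of 18.2 in KO. The highest value was that of F318, and 3 KO libraries exceeded all WT libraries. For S1pr5 the log2 fold change was 2.07 (SE 0.83) with all libraries and 0.78 without F318. Tbx21, which encodes the effector regulator T-bet and was chosen after its values were seen, measured 53.4, 297, 95.9, 28.7 and 142 CPM in WT and between 134 and 409 with a median of 257 in KO. Its KO libraries overlapped WT H719 and the WT pool. The log2 fold change of Tbx21 was 1.08 with an interval from -0.05 to 2.21, and it was 0.91 without F318.

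Genes of residence and vessel adhesion separated in no case. Cxcr6, a receptor that retains T cells in tissue, measured 756, 2011, 1440, 341 and 1477 CPM in WT and between 464 and 1802 with a median of 1161 in KO, all within the WT range. Its log2 fold change was -0.05 (SE 0.39). Itgae, the CD103 chain that binds E-cadherin, stood at -0.35 (SE 0.23), and Runx3, a residency and CD8 lineage regulator, at 0.25 (SE 0.20). Of 12 residency genes 3 were above 0, with a median of -0.071 that turned positive without WT H719.

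Itgb7, the integrin chain that pairs with CD103 or with the alpha 4 chain, measured 526 ± 181 CPM in WT and 694 ± 141 in KO, a log2 fold change of 0.40 (SE 0.19). Ccr4, a homing receptor, measured 9.16 ± 5.25 CPM in WT, where the pool held 18.4, and 4.92 ± 2.54 in KO, a log2 fold change of -0.90 (SE 0.44). Of the 18 vessel adhesion and homing genes 11 were above 0 and none reached an unadjusted p under 0.05. Their median of 0.099 kept its sign in every alternative tried.

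**Figure D2:**
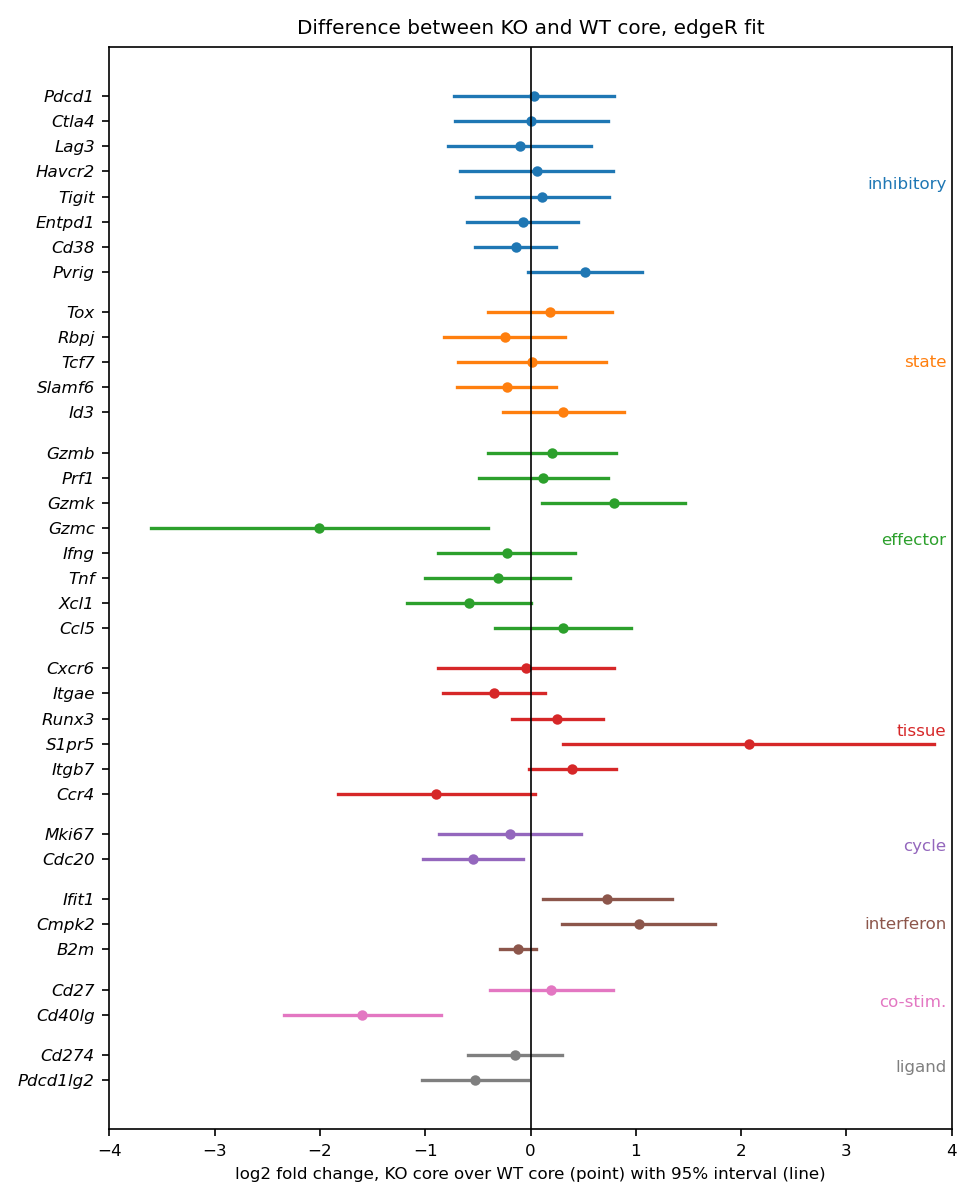
Log2 fold change of KO over WT core (points) with its 95% interval from the edgeR fit (lines) for 36 genes, coloured by role. The intervals of Pdcd1, Havcr2, Lag3, Tox and Tcf7 lie on both sides of 0, those of Gzmc, Cd40lg, Cdc20 and Pdcd1lg2 lie below 0, and those of Gzmk, S1pr5, Ifit1 and Cmpk2 above 0 before adjustment for the number of genes.

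Cd40lg was lower in every KO core library. It encodes CD40 ligand, a help signal to dendritic and B cells, and lies on chromosome X from 57212143 to 57224042 in GRCm38. WT held 7.47, 7.01, 7.06, 3.54 and 5.33 CPM, and KO between 0.799 and 3.28 with a median of 2.04. The log2 fold change was -1.60 with an interval from -2.34 to -0.86. Its edgeR adjusted p was 0.796 and its DESeq2 adjusted p 0.0106. Without the libraries in which Y-linked genes were read, the log2 fold change was -1.81. CD4 T cells are the usual main source of Cd40lg. Cd4 itself measured 33.9, 35.7, 27.7, 94.7 and 13.6 CPM in WT and between 18.9 and 140 with a median of 25.1 in KO. The groups overlapped for Cd4, whose log2 fold change was 0.17 (SE 0.77). The list of 8 markers of CD4 and regulatory T cells had 3 members above 0 and a median of -0.35. Cd40lg is itself a member, with the lowest value, so the list is no separate view of it. The summed level of the list ran from 391 to 919 CPM in WT and from 468 to 860 in KO. Ctla4, named above with the inhibitory receptors, held 165 to 610 CPM of it in WT and 157 to 596 in KO. Foxp3 held at most 10.1 and 8.41 CPM. The part of CD4 T cells in the Cd40lg value was not tested. Cd27, a co-stimulatory receptor of the TNF family, stood at 0.20 (SE 0.28), and 8 of 12 co-stimulatory genes were below 0.

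Next come the 10 higher and 10 lower genes with the smallest p among those with at least 5 CPM. Slc37a1, a sugar-phosphate exchanger on chromosome 17 from 31295135 to 31350709, measured 51.6, 42.5, 38.5, 49.1 and 57.9 CPM in WT and between 61.7 and 80.8 with a median of 67.8 in KO. Every KO library was above every WT library, the log2 fold change was 0.54 (SE 0.12), and the DESeq2 adjusted p was 0.028 beside an edgeR adjusted p of 0.796. Strn, the scaffold striatin of a phosphatase complex, on chromosome 17 from 78649898 to 78737322, measured 38.4, 61.5, 46.6, 29.9 and 51.4 CPM in WT and between 66.8 and 88.6 with a median of 71 in KO. It had a log2 fold change of 0.69 (SE 0.16), again with no overlap.

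The same separation held for 5 more of these 10 genes. Tmem131l stood at 81.4 ± 12.2 CPM in WT and 116 ± 13.2 in KO, and Dstyk, a protein kinase, at 2.77 ± 1.63 and 8.74 ± 1.01. Rnf168, a ubiquitin ligase at DNA breaks, measured 17.3 ± 8.03 CPM in WT and 36.4 ± 4.83 in KO, and Zbtb9 13.1 ± 5.63 and 28.0 ± 4.42. H2-Q5, a class I MHC gene, measured 50.5 ± 6.72 CPM in WT and 66.5 ± 4.86 in KO. H2-Q genes are close copies, so this value is uncertain. Zbtb9 and H2-Q5 lie on chromosome 17, as Slc37a1 and Strn do, and Tmem131l, Dstyk and Rnf168 on chromosomes 3, 1 and 16. The share of all genes on chromosome 17 was not counted, and the part of position in these values was not tested. Ythdf3, a reader of methylated adenosine in RNA, Nfkbiz, a nuclear regulator of NF-kappaB, and Fech, the last enzyme of haem synthesis, completed the 10 with log2 fold changes of 0.76, 0.69 and 0.79 and overlapping groups.

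Of the 10 lower genes, 4 separated the groups. Beside Cd40lg these were Idh3g, a subunit of mitochondrial isocitrate dehydrogenase, at 135 ± 8.10 CPM in WT and 109 ± 8.28 in KO, and Pcbp1, an RNA-binding protein, at 80.9 ± 10.5 and 63.6 ± 4.67 CPM. The fourth, Hmbox1, a telomere-binding protein, measured 16.1 ± 1.56 CPM in WT and 10.9 ± 1.51 in KO. Idh3g lies on chromosome X from 73778963 to 73786897, and its log2 fold change of -0.31 was -0.38 without the libraries with Y-linked reads. Rtn4, a shaper of endoplasmic reticulum tubules, Wdr6, Slc35d1, a nucleotide sugar transporter, Lztfl1, Mapk14, the kinase p38 alpha, and Lhpp, a phosphatase, had overlapping groups. Their log2 fold changes were -0.65, -0.49, -0.70, -0.53, -0.49 and -1.44 in that order. All 20 kept their sign in every alternative tried, which included leaving out each core library. They were picked by their p in these same libraries, so a kept sign was likely from the start and is no separate evidence.

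DESeq2's 9 calls were Slc37a1, Cd40lg, Klra13-ps, BC018473, Calhm4, Gm30286, Gm38524, LOC115486521 and Naalad2. BC018473 held 339 CPM in WT H719, 55.4 in the WT pool, 0.214 in WT H876 and 0 in the other 8 core libraries. Calhm4 held 1.86 CPM in WT F164, 1.79 in the WT pool and 0 in the other 9. LOC115486521 held 0 in all WT libraries and at most 1.79 CPM in KO. These 3 genes were above 0 in no more than 3 core libraries.

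At low level, Naalad2, Gm30286 and Gm38524 separated the groups. Naalad2, a peptidase gene, held 0 to 0.0364 CPM in WT and 0.160 to 4.57 in KO. Gm30286 held 0.518 to 1.5 CPM in WT and 0 to 0.076 in KO, and Gm38524 0.458 to 2.35 in WT and 0 to 0.215 in KO. Klra13-ps, a pseudogene among the Ly49 receptor genes, measured 8.41, 4.78, 19.7, 7.65 and 8.57 CPM in WT and between 15.2 and 50.7 with a median of 32.8 in KO. In 5 of 6 KO libraries it exceeded all WT libraries. Its fitted log2 fold change was 1.76 (SE 0.39) in the core, and the rim comparison gave 2.4. Reads from the many near-identical Ly49 genes may have been split among them.

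Most cell cycle genes had lower fitted values in KO core, by small amounts. Of 35 members 32 had a value below 0 and 3 above, with a median of -0.28, and the median lay between -0.47 (without KO F86) and -0.12 (without WT H719) in the alternatives tried. Members of a list can vary together, so their number is not a number of separate results. By library the list's mean log2 CPM overlapped, at 6.39 ± 0.39 in WT (SD, n = 5) and 6.12 ± 0.36 in KO (SD, n = 6). WT H876 had 5.88 and KO F86 6.74. Cdc20, the activator of the anaphase-promoting complex, was the 1 of 35 members with an unadjusted p under 0.05, a share near the 2.43 percent of all genes that were lower at that threshold. It measured 74.4, 117, 106, 65.6 and 77.4 CPM in WT and between 37.4 and 97.7 with a median of 56.6 in KO, where 4 libraries lay below all WT libraries. For Cdc20 the log2 fold change was -0.55 with an interval from -1.03 to -0.07 and an edgeR adjusted p of 0.796. Cdk1, the kinase of mitotic entry, which was chosen after its values were seen, stood at -0.53 (SE 0.28). Mki67, the proliferation marker Ki-67, measured 117, 254, 110, 91 and 155 CPM in WT and between 86 and 244 with a median of 106 in KO. Its log2 fold change was -0.20 (SE 0.32), with 5 KO libraries inside the WT range.

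Most type I interferon response genes had higher fitted values in KO core. Of 30 members 24 were above 0 and 6 below, with a median of 0.17 that kept its sign in every alternative tried. By library the list's mean log2 CPM overlapped, at 4.92 ± 0.28 in WT and 5.13 ± 0.24 in KO (SD). An unadjusted p under 0.05 was reached by 3 of the 30 members, all higher, beside 3.74 percent of all genes. Cmpk2, a mitochondrial nucleotide kinase, measured 15.6, 24.1, 5.53, 7.75 and 22.1 CPM in WT and between 23.2 and 42.7 with a median of 30.03 in KO. All but 1 KO library exceeded all WT libraries. The log2 fold change of Cmpk2 was 1.03 (SE 0.34).

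Ifit1, which encodes an RNA-binding protein, measured 29.0, 22.6, 15.8, 28.3 and 40.7 CPM in WT and between 23.7 and 67.5 with a median of 42.9 in KO. In 4 KO libraries it was above all WT libraries, and the log2 fold change was 0.73 (SE 0.29). Ddx58, the RNA sensor RIG-I, was the third and was chosen after its values were seen. It measured 98.8 CPM on average in WT and 127 in KO, a log2 fold change of 0.37 (SE 0.14). The edgeR adjusted p of these 3 genes was 0.796. Oasl1, an oligoadenylate synthetase-like gene, had the lowest value, -0.51 (SE 0.56), and its highest level, 22.2 CPM, was in WT H876.

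Many interferon-stimulated genes carry a known response element in their promoters. A core of that element, GAAA followed by any 2 bases and GAAA again, on either strand, was searched in the 300 bases from 250 before to 50 after each gene's start in the RefSeq promoter table (GRCm38.p6). It occurred in 11 of the 21 interferon response genes that matched the table (52.4 percent) and in 3.99 percent of all 27025 symbols there. The 120 bases just before the start of Ifit1 are shown because, of the interferon genes named here, Ifit1 has the largest fold change among those that hold the motif. They lie at chr19:34640769-34640888 on the plus strand, with the motif's reverse complement in capitals at 2 places.
Ifit1 upstream: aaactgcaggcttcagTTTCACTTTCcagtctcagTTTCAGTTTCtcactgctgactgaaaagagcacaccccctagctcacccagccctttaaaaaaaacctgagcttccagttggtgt
Cmpk2, with the larger fold change, held no match in its window.

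Genes of interferon gamma response and MHC class I presentation had 18 of 25 members above 0 and a median of 0.14. No member reached an unadjusted p under 0.05. B2m, the light chain of class I molecules, measured 4483, 5331, 4606, 5625 and 4891 CPM in WT and between 4024 and 5241 with a median of 4490 in KO. Of the KO libraries 3 lay below all WT libraries, and the log2 fold change was -0.12 with an interval from -0.29 to 0.05.

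Metabolic genes had small fitted differences. Of 22 glycolysis and hypoxia genes 17 were below 0, with a median of -0.14. Pgam1, phosphoglycerate mutase, measured 79.1, 80.6, 92.6, 83.0 and 90.4 CPM in WT and between 59.6 and 76.3 with a median of 68.4 in KO. No KO library reached the WT range, and the log2 fold change was -0.34 (SE 0.13, edgeR adjusted p 0.796). Of 85 oxidative phosphorylation genes 74 were below 0 with a median of -0.11, and 1 member in each direction reached an unadjusted p under 0.05. These were Cox6a1, a subunit of complex IV, at -0.27 (SE 0.10), and Uqcrfs1, a subunit of complex III, at 0.58 (SE 0.24). The mean log2 CPM of the oxidative phosphorylation list was 6.28 ± 0.089 in WT and 6.19 ± 0.11 in KO (SD), with overlap. Of 86 cytosolic ribosomal protein genes, among them look-alike copies that may share reads, 78 were below 0 with a median of -0.082. That median turned positive without KO F318 and without the libraries with Y-linked reads. The mean log2 CPM of the ribosomal protein list was 7.40 ± 0.14 in WT and 7.29 ± 0.35 in KO (SD), with overlap. Rpl10, on chromosome X, stood at -0.27 (SE 0.12). Signs also varied with transcript length. The genes at 5 CPM or more with a length in GENCODE M21 were put in 5 groups of about equal size by length. Group 1, the shortest (median 764 bases), had a median log2 fold change of -0.038 with 40.5 percent above 0, and group 4 (median 3048.5 bases) 0.037 with 55.9 percent. Group 5, the longest (median 4798.5 bases), was lower than group 4 again, at 0.020 with 53.4 percent. The median transcript length was 655 bases over 76 of the oxidative phosphorylation genes and 696.5 bases over 79 of the ribosomal protein genes. The part of length in the signs of both lists was not tested.

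Genes of the ligand side were measured in the same sorted cells. Cd274 measured 156, 120, 114, 220 and 155 CPM in WT and between 87.8 and 212 with a median of 129 in KO. In 2 KO libraries it lay below all WT libraries, and the log2 fold change was -0.15 with an interval from -0.60 to 0.30. The deletion is in endothelial cells, so Cd274 in sorted CD8 T cells does not check the genotype labels. Pdcd1lg2, which encodes PD-L2, measured 17, 23.4, 25.4, 27.7 and 27.9 CPM in WT and between 12.1 and 24.6 with a median of 15.4 in KO, with 4 KO libraries below all WT libraries. It had a log2 fold change of -0.53 (SE 0.24). Of 10 ligand genes 8 were below 0, and the median of -0.23 turned positive without WT H876.

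Of 21 immediate early and dissociation stress genes 11 were above 0 and 10 below. Ier2 stood at 386 ± 36.2 CPM in WT and 473 ± 54.0 in KO and Jund, an AP-1 subunit, at 29.2 ± 14.6 and 19.4 ± 5.19, log2 fold changes of 0.29 and -0.59. The list's median of 0.046 changed sign in 7 of the alternatives. Medians of the remaining T cell lists were -0.051 over 18 T cell receptor response genes, 0.14 over 14 TGF-beta pathway genes and 0.090 over 19 cytokine receptors, with 8, 9 and 12 members above 0. The first of these turned positive under limma voom with quality weights.

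**Figure D3:**
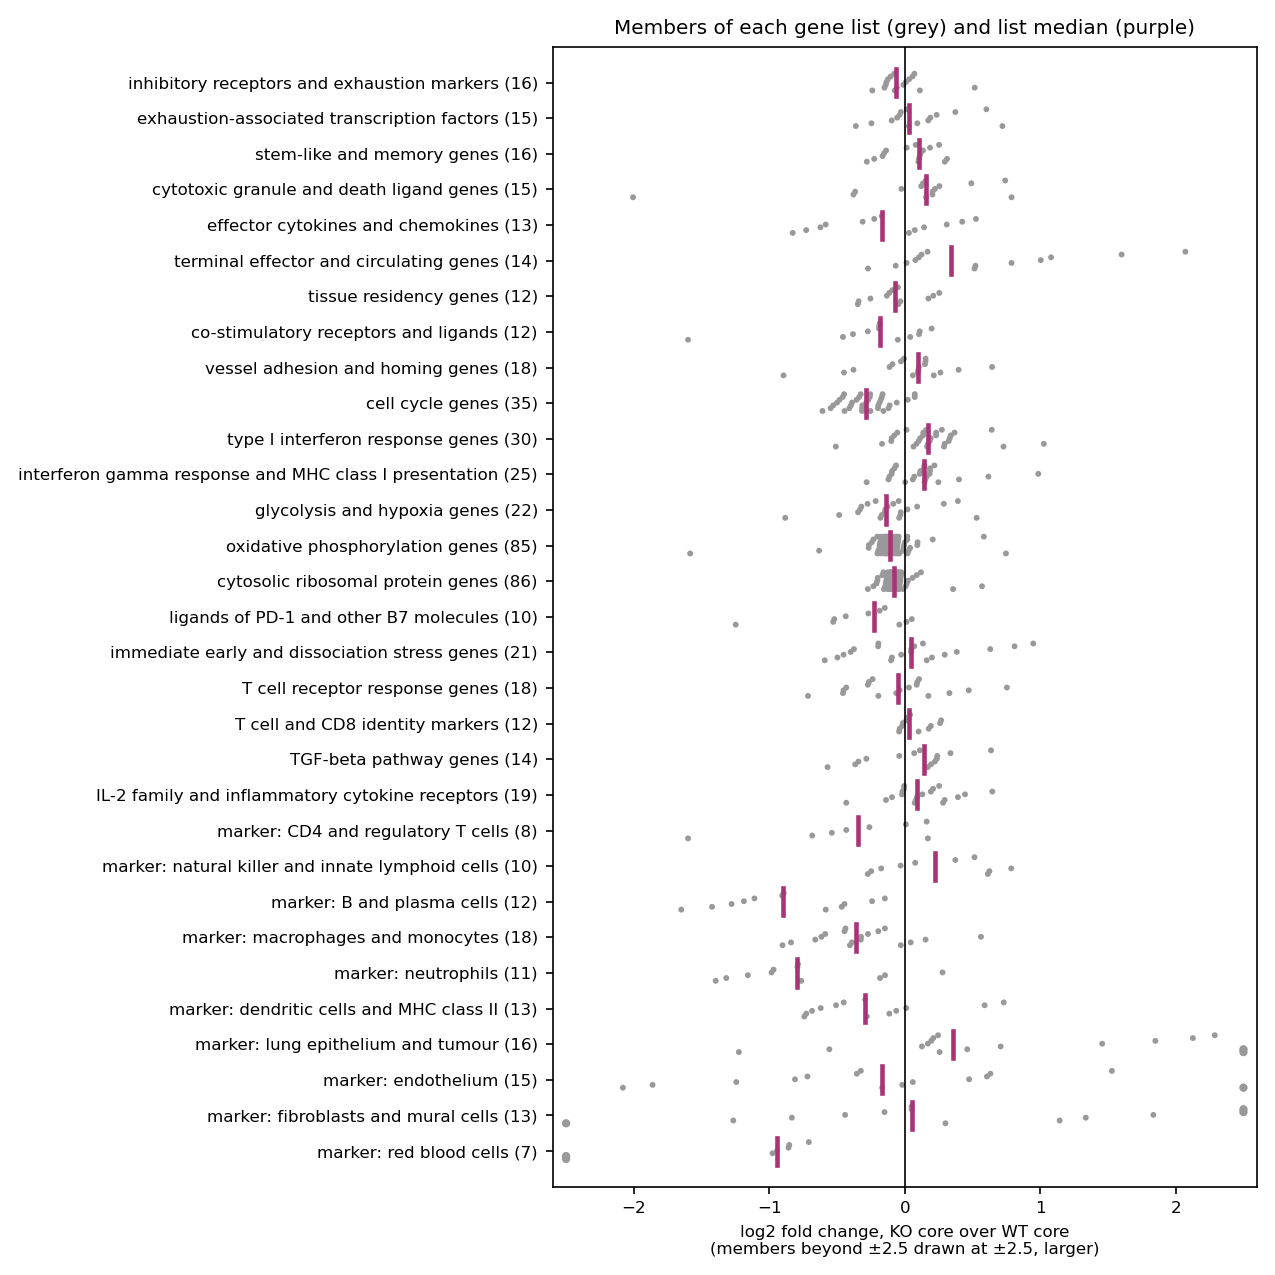
Log2 fold change of KO over WT core for each tested member (grey points) of 31 gene lists, with the list's median in purple and the number of members in brackets. The cell cycle median is -0.28 and that of terminal effector genes 0.34, beside -0.010 over all 20137 genes, while B cell, neutrophil and red blood cell markers have the lowest medians.

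Depth and CD8 T cell markers overlapped between the genotypes. Library totals ran from 24207723 to 28517265 counts in WT core and from 23250676 to 32566456 in KO core. Correlations of log2 CPM had a median of 0.925 within WT (10 pairs), 0.933 within KO (15 pairs) and 0.926 between genotypes (30 pairs), given as a description. The first principal component, with 22.6 percent of the variance over 500 genes, had WT H876 and KO F318 at 1 end and WT H719 and KO F319 at the other. CD8 T cell markers were high in all 11 libraries. Cd8a measured 878 to 1983 CPM in WT and 1094 to 1684 in KO, Cd8b1 826 to 1623 and 791 to 1412, and Cd3e 591 to 1359 and 674 to 1130. Y-linked genes were read at 449 CPM in KO F322 and 511 in KO O, where Xist was 0, and at 103 CPM in the WT pool, where Xist was 34.9. They were at most 0.179 CPM in the other 8. Sex was therefore unequal between the groups. Without those 3 libraries and their rim counterparts, edgeR again called 0 genes, with 401 higher and 259 lower at an unadjusted p under 0.05.

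Transcripts used as markers of other cells were read in every library, and 7 of 10 marker lists had a median below 0. In bulk RNA a lower level from fewer cells of a type cannot be told apart from less RNA per cell. All 12 B and plasma cell markers were below 0, with a median of -0.90, and their summed level ran from 561 to 2494 CPM in WT and from 216 to 4081 in KO. Cd79a, part of the B cell receptor, measured 60.1, 30.1, 26.0, 108 and 49.7 CPM in WT and between 5.06 and 53.5 with a median of 17.6 in KO, and its log2 fold change was -1.19 (SE 0.61). Of 11 neutrophil markers 10 were below 0, with a median of -0.79 and summed levels of 252 to 747 CPM in WT and 145 to 368 in KO.

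S100a8, a calcium-binding protein of neutrophils, measured 45.7, 33.1, 30.5, 80.3 and 40.1 CPM in WT and between 4.82 and 29.5 with a median of 15.2 in KO. No KO library reached the WT range. Its log2 fold change was -1.40 with an interval from -2.67 to -0.12 and an edgeR adjusted p of 0.796. G0s2, a lipolysis inhibitor expressed in neutrophils, stood at -1.16 (SE 0.45). Ngp was at 0 in 7 of the 11 libraries.

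Red blood cell markers summed to 45.1 to 184 CPM in WT and 0.704 to 110 in KO, with 7 of 7 below 0. The 4 globin genes were at 0 in KO F318. Markers of macrophages and monocytes had 15 of 18 below 0 with a median of -0.36, and summed to 4516 to 9170 CPM in WT and 4531 to 8966 in KO. Markers of dendritic cells and MHC class II had 10 of 13 below 0 and a median of -0.29, which turned positive without WT H876, the library with the highest sum of 25059 CPM. Their sum was 3755 CPM at its lowest in WT and between 2909 and 11819 CPM in KO.

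Lung epithelium and tumour markers had 14 of 16 above 0 and a median of 0.36 that was negative without KO F219. Their sums ran from 346 to 1024 CPM in WT and from 488 to 1377 in KO. Natural killer and innate lymphoid markers had a median of 0.22, with a change of sign under limma voom, and sums of 226 to 713 CPM in WT and 223 to 775 in KO. Endothelial markers summed to 67.7 to 231 CPM in WT and 72.9 to 235 in KO, and Emcn, an endothelial sialomucin, was at 0 in 7 of the 11 libraries. Pecam1 alone held 44.5 to 106 CPM in WT and 56.2 to 142 in KO. Cdh5 was at most 14.8 and 17.4 CPM, and Kdr 36.5 and 52.2. Fibroblast and mural cell markers summed to 261 to 639 CPM in WT and 148 to 877.3 in KO. Fn1 alone held 228 to 617 CPM in WT and 145 to 704 in KO. Col1a1 was at most 9.08 and 16.6 CPM, and Col3a1 15.1 and 63.0. Such sums therefore do not measure how many cells of a type were present. The part of the transcripts of other cells in the gene differences above was not tested.

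**Figure D4:**
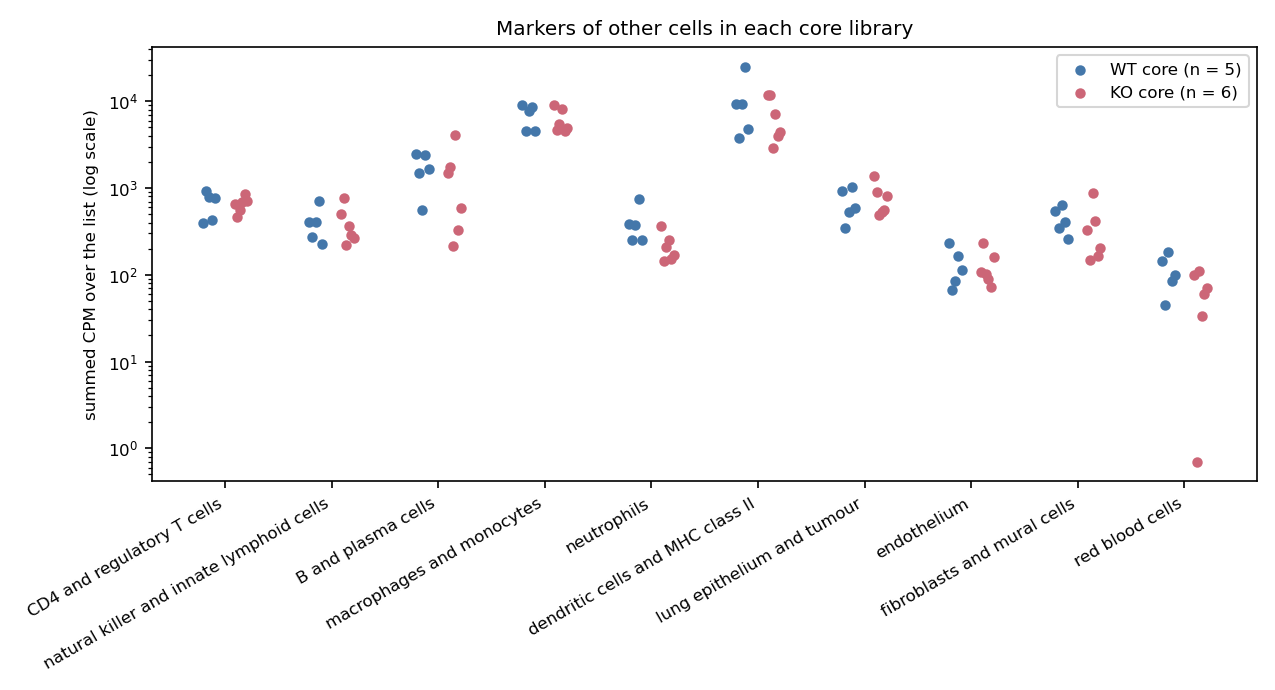
Summed CPM of the markers of 10 other cell types in each core library on a log scale, WT in blue (n = 5) and KO in red (n = 6). The ranges of the genotypes overlap for all 10 lists, and neutrophil sums run from 252 to 747 CPM in WT and from 145 to 368 in KO.

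The genotype effect in the core was set against that in the rim, where 4 KO and 2 WT libraries were available. The test of the difference between both effects called 0 genes (0 percent) in edgeR, with a smallest adjusted p of 0.0621. DESeq2 called 161 of 20137 genes, 148 with the effect in the core below that in the rim and 13 above. At an unadjusted p under 0.05 in edgeR the effect in the core was below that in the rim for 979 genes (4.86 percent). It was above it for 568 (2.82 percent). DESeq2 gave 1118 below and 485 above at that threshold, and edgeR with RLE factors 978 and 575. Both limma voom fits turned the split. Limma voom with quality weights gave 535 below and 600 above, with 0 calls and a smallest adjusted p of 0.418. With the identifier as a replicate block it gave 612 below and 687 above, with 0 calls and a smallest adjusted p of 0.333. Xcl1 was among the genes that shared the smallest adjusted p of edgeR, 0.0621. Its log2 fold change was -0.58 in the core and 2.83 in the rim, a difference of -3.42 (SE 0.54). Levels of Xcl1 in the rim were 7.78 and 15.5 CPM in WT and 40.9 to 131 in KO, against 144 to 217 in WT core.

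Several gene lists had lower fitted effects in the core than in the rim under edgeR. Of the 16 inhibitory receptors 10 had an unadjusted p under 0.05 for the difference, all with the core below the rim, and their medians were -0.066 in the core and 1.32 in the rim. Pdcd1 measured 236 and 399 CPM in WT rim and 1042 to 1114 in KO rim, and its log2 fold change was 0.03 in the core and 1.75 in the rim. The difference for Pdcd1 had an edgeR adjusted p of 0.586. Of 35 cell cycle genes 25 met the same unadjusted threshold with the core below the rim, at medians of -0.28 and 1.15. For 13 cytokine and chemokine genes the count was 6, at medians of -0.17 and 1.11. No ribosomal protein gene met it, at medians of -0.082 and -0.18. Some lists went the other way. Of 14 terminal effector and circulating genes 4 met the threshold with the core above the rim, beside 2.82 percent of all genes, and 1 with the core below. Their medians were 0.34 in the core and -0.31 in the rim. For 16 stem-like and memory genes these counts were 1 and 0, at medians of 0.10 and -0.57. Most marker lists of other cells also had a median difference below 0. Those of dendritic cells and MHC class II had 0.32, with a rim median of -0.60, and those of natural killer and innate lymphoid cells 0.14. Of 18 macrophage and monocyte markers 6 met the threshold with the core below the rim, at medians of -0.36 and 1.35 and a median difference of -1.66. For 11 neutrophil markers the count was 3, with a rim median of 0.65 and a median difference of -1.83. Markers of CD4 and regulatory T cells gave 3 of 8, a rim median of 0.49 and a median difference of -0.95, and lung epithelium and tumour markers 1 of 16, a rim median of 1.68 and a median difference of -1.10. The part of these cells in the differences between core and rim was not tested. The WT rim group had only 2 libraries, so each rim value leans on few measurements.

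**Figure D5:**
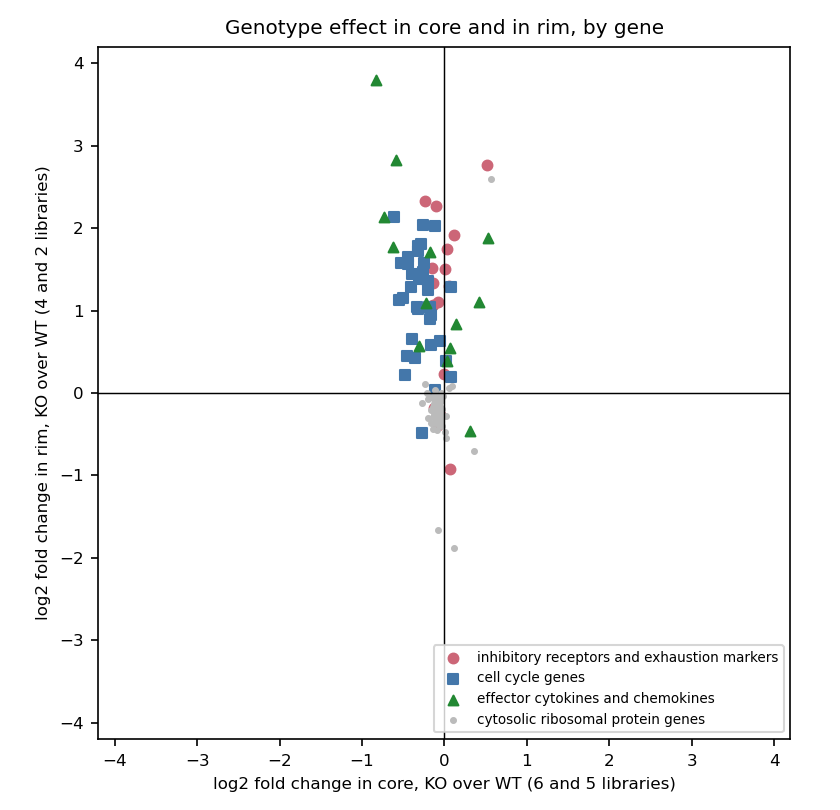
Log2 fold change of KO over WT in core (x axis, 6 and 5 libraries) and in rim (y axis, 4 and 2 libraries) for the members of 4 gene lists. Most cell cycle genes (blue) and inhibitory receptors (red) lie near 0 or below in the core and above 0 in the rim, with medians of -0.28 and 1.15 and of -0.066 and 1.32, while most ribosomal protein genes (grey) lie near 0 on both axes.

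The precision sets what the 11 libraries could show. For the 10671 genes whose mean reached 5 CPM in at least the higher genotype, the 95% interval reached 0.457 log2 units to either side at the median, and it lay within 1 log2 unit of 0 for 8038 genes (75.3 percent). Over all genes that held for 8414 (41.8 percent). In the same 10671 genes, 390 were higher and 148 lower at an unadjusted p under 0.05, with 30 and 16 whose groups did not overlap. Single libraries moved the counts over all genes. Without WT H719 they were 1147 higher and 405 lower, and without WT F164 549 and 502, with 0 calls in both cases.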

How the data were processed

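The authors deposited raw read counts per gene symbol for 17 libraries, made with the RNeasy Micro and TruSeq RNA kits, per the labels' protocols. Tools listed without settings in the submitters' processing notes were featureCounts from Subread 2.0.0, HISAT2, Bowtie2 2.4.5 and cutadapt 3.2, with the builds GRCm38 and mm10. The sources used here do not give strandedness. Of 27240 symbols, 20137 passed filterByExpr. edgeR 4.0.16 (R 4.3.3) fitted all 17 libraries in 4 groups, with TMM factors and a robust quasi-likelihood F test, two-sided, adjusted by Benjamini-Hochberg over all genes. An SE is the fold change divided by the square root of F, and the 95% interval uses the fit's degrees of freedom. Log2 CPM used a prior count of 2. The fit was also run on simulated counts whose spread was set below the common one of the real libraries. That common biological coefficient of variation was 0.783. The run checked the code and does not show what these libraries could detect. Totals of 21767045 to 32566456 counts per library set the depth.

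The members and gene lists were chosen with earlier results of these data known, so lists carry counts and medians and no test. Genes were named by rule: the 10 smallest p in each direction with at least 5 CPM and no clone or pseudogene symbol, all DESeq2 or limma calls, a set of T cell and marker genes, and the smallest p in each list described. Libraries are not said to come from separate animals, so p-values measure the spread between libraries, which may be technical. F322, F86 and O name KO libraries at both sites. Alternatives were the 11 core libraries alone, DESeq2 1.42.0, RLE factors, no filter, limma 3.58.1 voom with quality weights or an identifier block, removal of libraries with Y-linked reads, and leaving out each core library. Positions are from RefSeq (GRCm38.p6), where all symbols were found.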

Additional observations from a re-analysis of the deposited data

Results flagged for a closer look

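In groups of 5 or 6 core libraries, 226 sets of levels were examined for 1 library far from the rest, and 23 were found. A rate of about 1 in 20 was assumed for chance. The sets overlapped and some genes were picked by their values, so the number found cannot be judged against that rate. KO F318 accounted for 6 of them. It was low for Tigit at 104 CPM and Cd3e at 674 CPM, high for Cd4 at 140 CPM, S1pr5 at 171 CPM and Gzmc at 4.61 CPM, and low for the red blood cell markers at a mean log2 CPM of -3.19. The WT pool accounted for 4, with Ccr4 at 18.4 CPM, the vessel adhesion list at a mean log2 CPM of 7.48, the sex-linked list at 4.49 and Y-linked genes at 103 CPM.

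Other single libraries stood apart in 1 or 2 sets each. WT H876 was high for Cd4 at 94.7 CPM and for Oasl1 at 22.2 CPM. KO F219 was high for Oasl1 at 18.5 CPM and for LOC115486521 at 1.79 CPM. KO F322 was low for Rtn4 at 15.6 CPM and high for Gzmk at 326 CPM, and KO F86 was high for Lhpp at 6.31 CPM and Mki67 at 244 CPM. KO F319 was high for Tcf7 at 533 CPM and stood apart for the interferon gamma and MHC class I list at a mean log2 CPM of 7.44. KO O was high for Ccl1 at 70.7 CPM. WT H719 was high for BC018473 at 339 CPM and WT H873 for Klra13-ps at 19.7 CPM.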

How the results depend on the processing

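The core comparison called 0 genes in edgeR in each setting and 9 in DESeq2, and 0 with limma voom and the identifier as a replicate block, as in the other limma fit. KO and WT core share no identifier. The difference between core and rim effects went from 0 calls to 161 in DESeq2 and 4 with no filter, stayed at 0 in limma voom (smallest adjusted p 0.418 with quality weights and 0.333 with the replicate block), and ranged from 0 to 5 when core libraries were left out (5 without WT H876, 2 without the WT pool, 1 without KO F86). The sex-linked median went from 2.80 to -0.854 with the core libraries alone and -0.415 without libraries with Y-linked reads, and ranged from 2.10 to 11.99 with 1 library left out. PC1 held 18.5 percent over 2000 genes. Of 1434 settings over 80 named genes, 1361 kept sign and side of the threshold, 9 became called and 64 changed sign, in 18 genes. Of 32 lists, 16 changed the sign of their median in some setting. The causes were not tested.

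Without libraries with Y-linked reads the log2 fold changes that changed sign were -0.18 for Pdcd1, -0.11 for Havcr2, 0.012 for Lag3, -0.041 for Tigit and -0.040 for Ctla4. With the core libraries alone Ctla4 was -0.0048. Limma voom with quality weights gave 0.013 for Entpd1, 0.025 for Cxcr6, 0.0056 for Cd8a and 0.0074 for Cd3e, and with the replicate block 0.040 for Lag3, 0.098 for Cxcr6, 0.018 for Cd8a and 0.023 for Cd3e. Leaving out 1 core library gave ranges of -0.18 to 0.27 for Pdcd1, -0.082 to 0.27 for Havcr2, -0.29 to 0.16 for Lag3, -0.068 to 0.31 for Tigit, -0.20 to 0.24 for Ctla4, -0.20 to 0.075 for Entpd1, -0.17 to 0.16 for Tcf7, -0.044 to 0.40 for Prf1 and -0.38 to 0.14 for Ifng. The ranges were -0.50 to 0.093 for Tnf, -0.48 to 0.12 for Mki67, -0.30 to 0.24 for Cxcr6, -0.33 to 0.0056 for Cd274, -0.18 to 0.14 for Cd8a, -0.079 to 0.16 for Cd8b1, -0.17 to 0.13 for Cd3e, -0.57 to 0.72 for Cd4 and -1.19 to 0.099 for Oasl1.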
